A study of Mus musculus with 7 samples.

Results

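The genes described here are 33 transcription factors of islet development and islet cell identity, chosen by name from the 34082 gene names of the expression table. Islet RNA was measured on day 15 of pregnancy in 4 βPrlR+/- mice and 3 Prlr+/- mice, with 1 library per mouse, and the mice are numbered here 1 to 4 and 1 to 3. All were pregnant C57BL/6 females that had been mated with wild-type males, at 3 to 4 months of age by the labels and somewhat older by the paper. In the βPrlR+/- mice the prolactin receptor gene is removed in pancreatic β-cells by Pdx1CreER, a tamoxifen-activated Cre recombinase driven by the promoter of Pdx1, which is itself a member of the set. Pdx1 is also expressed, at lower levels, in some other pancreatic cells. Tamoxifen was given by gavage. The Prlr+/- mice lack 1 allele in every tissue and received neither the Cre transgene nor tamoxifen, so that genotype, Cre and tamoxifen cannot be told apart in any difference below. The paper describes the β-cell deletion as heterozygous where the design text has it homozygous, and the sample titles use a term, CkoWt, that is not explained. Islets were picked by hand after collagenase digestion and, by the paper, kept in culture overnight, and no islets of wild-type mice were analysed here. The comparison asks how islet gene expression differs between loss of the receptor gene in β-cells and loss of 1 allele in all tissues.

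Islet endocrine cells arise from pancreatic progenitors that switch on NEUROG3. Their later identity is held by combinations of homeodomain, bHLH, forkhead and zinc-finger factors. PDX1, NKX6-1 and MAFA sit at the centre of the β-cell program and act on insulin and on genes of glucose sensing, while IRX1, IRX2 and POU3F4 belong to α-cells and HHEX to δ-cells. Loss of the β-cell factors is known to let β-cells take on features of other endocrine cells.

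Values are TPM, a measure of abundance corrected for transcript length and for the total of each library, divided by a size factor for each mouse and called scaled TPM. The study's methods give the reads sequenced per library, but TPM does not keep the number assigned to a gene, so no counting error was computed for a value. The insulin genes took 46.1% to 53.2% of the TPM in βPrlR+/- islets and 54.0% to 58.9% in Prlr+/- islets. Genes were tested where the TPM averaged 0.5 or more over the mice, which left 14840, and 10 of them (0.0674%) passed an adjusted p of 0.05 by limma with Benjamini-Hochberg adjustment. The receptor gene PRLR itself was at 55.7, 38.4, 47.3 and 38.8 scaled TPM in βPrlR+/- islets, against 36.1, 51.1 and 35.1 in Prlr+/- islets. Its value sums whole transcripts over all islet cells and does not test the deletion. The hormone genes INS, Gcg, SST and PPY were at 4065 scaled TPM or more in each of the 7 mice, while LOXL4 and FAP of the α-cell list and LEPR of the δ- and PP-cell list were at 0.0065 to 0.98. Markers of acinar cells, the enzyme-making cells around the islets, summed to between 1751 and 15900 scaled TPM in βPrlR+/- islets, against between 4950 and 13210 in Prlr+/- islets. Markers of neurons and glia summed to 37.1 to 42.7 and to 25.8 to 26.0 in the 2 groups, with 6 of 6 tested genes below 0 and 2 called. Those of endothelial cells summed to 151 to 187 and to 127 to 160, with 6 of 6 below 0 and 0 called. In limma 5 neuron and glia markers and 4 endothelial markers had an unadjusted p under 0.05, where 4.52% of all genes tested did. The groups did not overlap for 5 and 3 of them, where 4.95% of all genes tested did not. The part of these cells in the values of the factors was not tested.

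No transcription factor of the set passed the adjusted threshold between the groups. Of the 33 members 27 passed the filter on low values, and limma called 0 of them at the adjusted p of 0.05. MAFA, ETV1 and GLIS3 had an unadjusted p under 0.05, that is 3 of 27 members where 4.52% of all genes tested did so. The log2 fold change, Prlr+/- over βPrlR+/-, was above 0 for 12 members and below 0 for 15, with a median of -0.08, which was -0.21 with TPM as deposited, 0.03 with a filter of 5 mean TPM and 0.0054 without Prlr+/- mouse 3. Leaving out a single mouse moved the fold change by over 1.5 times, or across 0, for 24 of the 27, all but MAFA, ETV1 and GLIS3. Over all genes tested 51.7% were above 0 and the median was 0.0042. In bulk islet RNA, fewer cells of a type and less RNA per cell cannot be told apart.

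**Figure D1:**
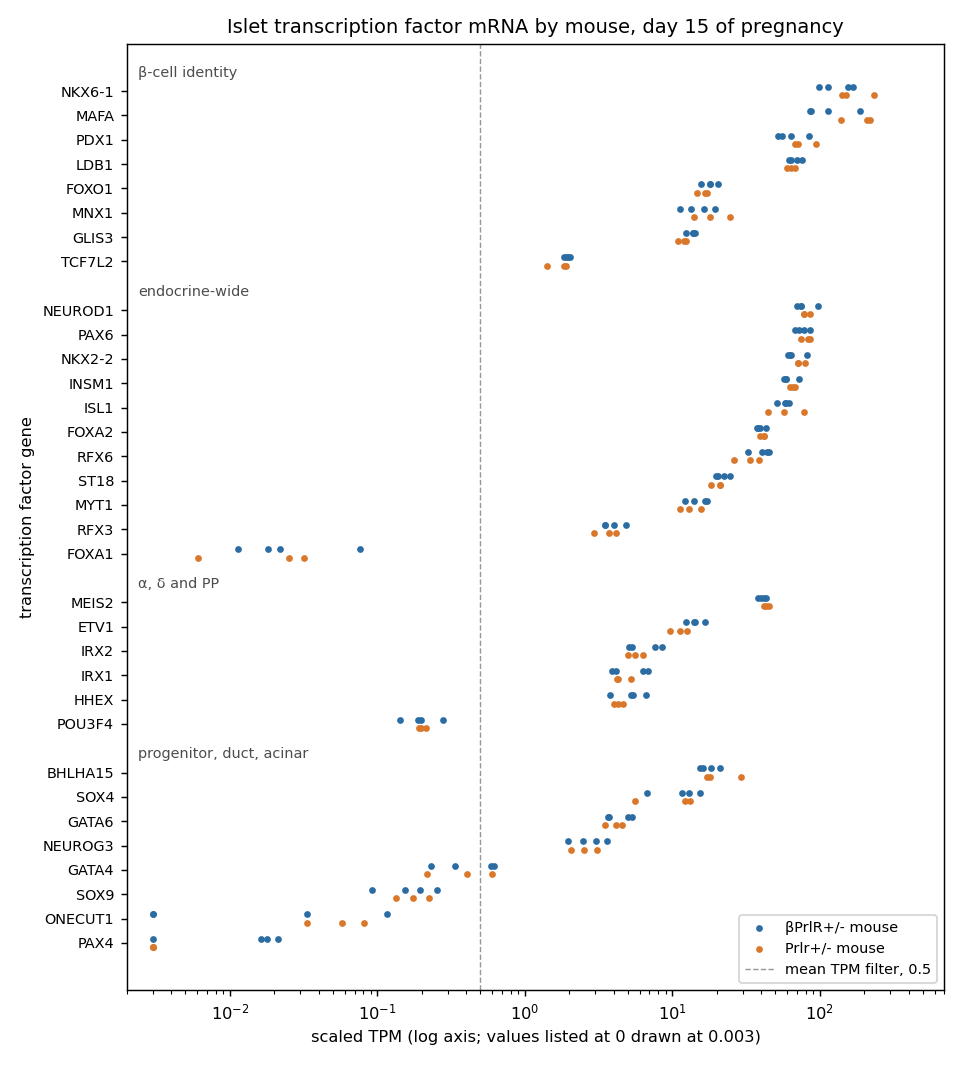
Scaled TPM (log axis) of the 33 transcription factors in each mouse, grouped by role and ordered by mean level. Each point is 1 mouse, values listed at 0 are drawn at 0.003, and the dashed line is the filter of 0.5 mean TPM. NKX6-1 and MAFA are highest, and 6 genes lie below the filter.

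**Figure D2:**
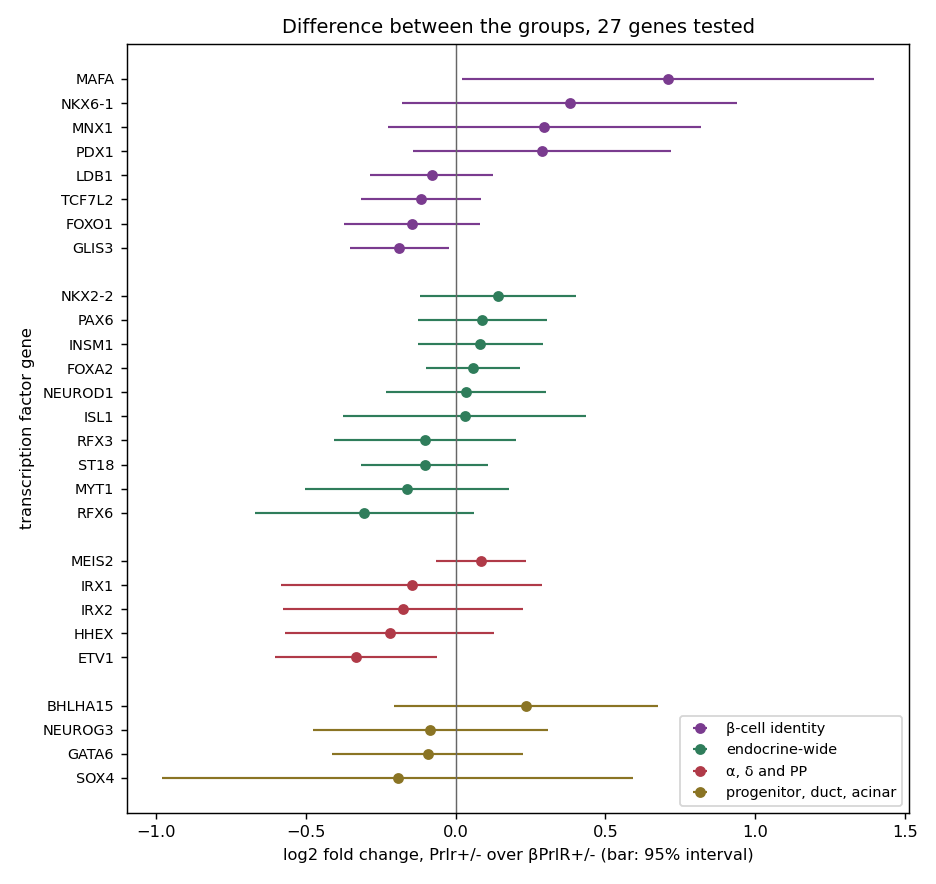
Log2 fold change, Prlr+/- over βPrlR+/-, of the 27 genes tested, with the 95% interval of the limma fit. The intervals of MAFA, ETV1 and GLIS3 do not reach 0 before adjustment, and none of the 27 passes the adjusted threshold.

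Upstream sequence is shown for PDX1, NKX6-1, MNX1, RFX6 and GLIS3, since the first 3 of these varied together across mice and the last 2 varied the other way. Sequences are from RefSeq on build GRCm38.p6, whose promoter table matched 25 of the 33 members. Each gives the 250 bases before the annotated start of transcription, read 5′ to 3′ on the strand of the gene. They lie at chr5:147269847-147270096 (+ strand), chr5:101664712-101664961 (- strand), chr5:29478471-29478720 (- strand), chr10:51685268-51685517 (+ strand) and chr19:28680078-28680327 (- strand). Capitals mark matches, on either strand, to an E-box (CANNTG), a homeodomain motif (TAATTA), a forkhead motif (TGTTTAC) or the MAF half-site (TGCTGA).
PDX1: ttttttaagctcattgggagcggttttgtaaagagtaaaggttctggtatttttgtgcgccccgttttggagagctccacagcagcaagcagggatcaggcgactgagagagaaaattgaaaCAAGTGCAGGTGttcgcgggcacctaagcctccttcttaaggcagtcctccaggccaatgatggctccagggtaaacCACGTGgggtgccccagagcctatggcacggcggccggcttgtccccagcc
NKX6-1: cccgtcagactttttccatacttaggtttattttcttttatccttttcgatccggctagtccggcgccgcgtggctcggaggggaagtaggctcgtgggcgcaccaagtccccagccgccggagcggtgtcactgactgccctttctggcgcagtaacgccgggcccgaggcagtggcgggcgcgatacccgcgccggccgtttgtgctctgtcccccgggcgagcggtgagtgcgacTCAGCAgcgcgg
MNX1: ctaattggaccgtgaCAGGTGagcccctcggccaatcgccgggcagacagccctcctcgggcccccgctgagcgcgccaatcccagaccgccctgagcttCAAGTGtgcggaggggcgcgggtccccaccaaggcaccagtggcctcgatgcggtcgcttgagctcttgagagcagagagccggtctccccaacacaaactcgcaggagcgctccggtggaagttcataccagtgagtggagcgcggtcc
RFX6: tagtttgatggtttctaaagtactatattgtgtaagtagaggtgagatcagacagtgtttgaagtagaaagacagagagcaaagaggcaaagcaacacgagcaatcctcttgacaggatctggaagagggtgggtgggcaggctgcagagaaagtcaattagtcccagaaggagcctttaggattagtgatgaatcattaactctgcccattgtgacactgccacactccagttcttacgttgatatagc
GLIS3: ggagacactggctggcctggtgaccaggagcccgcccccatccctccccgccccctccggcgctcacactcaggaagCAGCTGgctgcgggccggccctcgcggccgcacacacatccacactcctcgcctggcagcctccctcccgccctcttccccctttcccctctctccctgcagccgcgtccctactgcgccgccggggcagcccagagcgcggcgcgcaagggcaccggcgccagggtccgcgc
The PDX1 window holds 3 E-box matches, of which 2 are adjacent, MNX1 holds 2 and GLIS3 holds 1. NKX6-1 holds 1 MAF half-site match, and RFX6 holds none of the 4 motifs. Among 32851 promoter windows of this length, 66.2% held an E-box, 16.1% the MAF half-site, 4.84% the homeodomain motif and 3.17% the forkhead motif. Of the 34 windows of members, 19 held an E-box, 5 a MAF half-site, 2 a forkhead motif and 0 the homeodomain motif.

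Among the β-cell identity factors, MAFA, a late activator of insulin and of genes of mature β-cells, had the largest difference of the 27. It was at 188, 86.4, 114 and 87.1 scaled TPM in βPrlR+/- mice 1 to 4 and at 139, 209 and 217 in Prlr+/- mice 1 to 3. All βPrlR+/- mice but mouse 1 lay below every Prlr+/- mouse, and mouse 1 lay above Prlr+/- mouse 1, so the groups overlapped. The means were 119 ± 47.6 (SD, n = 4) and 189 ± 42.8 (SD, n = 3). The log2 fold change was 0.71 with SE 0.29 and a 95% interval of 0.02 to 1.40, at an unadjusted p of 0.044 and an adjusted p of 0.9999 in limma. An exact permutation test (two-sided, 35 ways to split the mice, smallest possible p 0.029) gave p = 0.11. Leaving out a mouse put the log2 fold change of MAFA at its lowest, 0.58, when βPrlR+/- mouse 2 was dropped and at its highest, 0.95, when βPrlR+/- mouse 1 was. Its unadjusted p then ran from 0.0026, without βPrlR+/- mouse 1, to 0.13, without Prlr+/- mouse 3, and was under 0.05 in only 2 of the 7 fits, those without βPrlR+/- mouse 1 or Prlr+/- mouse 1. With TPM as deposited it was 0.056, and with no filter 0.052.

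NKX6-1, which represses the programs of other endocrine cells within β-cells, was the most abundant member. It was at 167, 98.1, 155 and 114 scaled TPM in βPrlR+/- islets, against 151, 231 and 141 in Prlr+/- islets. The groups overlapped widely, and Prlr+/- mouse 2 stood above the rest. For NKX6-1 the log2 fold change was 0.38 with SE 0.24 and a 95% interval of -0.18 to 0.94, and the exact permutation p was 0.29. The fold change was 0.16 without Prlr+/- mouse 2 and 0.52 without Prlr+/- mouse 3.

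PDX1, the factor whose promoter drives the Cre of the βPrlR+/- mice, was at 84.0, 55.3, 64.0 and 52.3 scaled TPM in the islets of these mice, against 67.6, 94.3 and 71.3 in Prlr+/- islets. βPrlR+/- mouse 1 lay within the Prlr+/- range and the other 3 lay below it. For PDX1 the log2 fold change was 0.29 with SE 0.18 and a 95% interval of -0.14 to 0.72. The exact permutation p was 0.23. The fold change of PDX1 was 0.14 without Prlr+/- mouse 2 and 0.43 without βPrlR+/- mouse 1. MNX1, a homeodomain factor that keeps β-cells from turning to other endocrine fates, was at 19.5, 13.3, 16.4 and 11.2 and at 18.1, 24.4 and 14.04. Its log2 fold change was 0.30 with an interval of -0.23 to 0.82. The fold change of MNX1 was 0.10 without Prlr+/- mouse 2 and 0.48 without Prlr+/- mouse 3. For both genes Prlr+/- mouse 2 was the highest of the 7.

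The other 4 factors of this group had log2 fold changes below 0. GLIS3, a zinc-finger activator of insulin, was at 12.4, 13.8, 13.9 and 14.3 scaled TPM in βPrlR+/- islets, against 12.1, 10.98 and 12.3 in Prlr+/- islets. It was the only tested member whose groups did not overlap, 1 of 27, where 4.95% of all genes tested did not overlap (3.11% lower and 1.84% higher in Prlr+/- islets), and the gap between the nearest mice was small (12.35 and 12.33). The log2 fold change was -0.19 with SE 0.07 and an interval of -0.35 to -0.02, at an unadjusted p of 0.031 and an adjusted p of 0.9999 in limma. Its exact permutation p was 0.057. With a mouse left out the unadjusted p of GLIS3 was 0.012 to 0.091, and it was under 0.05 in 2 of the 7 fits. The fold change was -0.32 with TPM as deposited. When the insulin genes were left out before scaling it was -0.18 at an unadjusted p of 0.14, and the groups of GLIS3 did overlap. FOXO1, which moves to the nucleus under metabolic stress, LDB1, the partner of LIM-homeodomain factors such as ISL1, and TCF7L2, a WNT effector and diabetes risk gene, had log2 fold changes of -0.15, -0.08 and -0.11, with intervals that include 0. These were -0.08 for FOXO1 without Prlr+/- mouse 2, -0.03 for LDB1 without βPrlR+/- mouse 4 and -0.03 for TCF7L2 without Prlr+/- mouse 3. That of LDB1 was -0.13 without Prlr+/- mouse 3. The median of the 8 β-cell identity factors was 0.10, with 4 above and 4 below 0. It was -0.03 with TPM as deposited, 0.29 over the members with a mean TPM of at least 5 and 0.03 without Prlr+/- mouse 2.

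Of the 11 endocrine-wide factors, which serve several islet cell types, 10 were tested, and their log2 fold changes lay between -0.30 and 0.14. NEUROD1, a bHLH activator of insulin that acts after NEUROG3, was at 70.6, 74.96, 74.92 and 97.2 scaled TPM in βPrlR+/- islets, against 78.6, 86.0 and 77.7 in Prlr+/- islets. The Prlr+/- values lay inside the βPrlR+/- range. For NEUROD1 the log2 fold change was 0.03 with an interval of -0.23 to 0.30.

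RFX6, which directs endocrine differentiation and β-cell calcium channel expression, had the lowest fold change of the endocrine-wide group. It was at 32.6, 43.6, 40.8 and 44.95 scaled TPM in βPrlR+/- islets, against 33.6, 26.0 and 38.6 in Prlr+/- islets. βPrlR+/- mouse 1 lay among the Prlr+/- mice and the other 3 lay above them. For RFX6 the log2 fold change was -0.30 with SE 0.16 and an interval of -0.67 to 0.06, and the exact permutation p was 0.14. The fold change was -0.15 without Prlr+/- mouse 2 and -0.43 without Prlr+/- mouse 3.

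PAX6, NKX2-2, INSM1, ISL1 and FOXA2, which all act in endocrine differentiation or in hormone gene expression, had fold changes above 0, from 0.03 for ISL1 to 0.14 for NKX2-2, which all turned below 0, as did NEUROD1 and MEIS2, when TPM was used as deposited and the median of all genes was -0.12. RFX3, ST18 and MYT1 had fold changes below 0, from -0.10 to -0.16. Without Prlr+/- mouse 2 that of ST18 was -0.04 and that of MYT1 -0.06, and RFX3 was at 0.0054 without Prlr+/- mouse 3. MYT1 was at -0.29 without Prlr+/- mouse 3. FOXA1, a forkhead factor related to FOXA2, was at 0.0061 to 0.076 scaled TPM over the 7 mice and was not tested, while FOXA2 was at 37.2 to 43.0. The median of the 10 tested was 0.03, with 6 above and 4 below 0, and was -0.11 with TPM as deposited. It ran from -0.03, without Prlr+/- mouse 2, to 0.06, without Prlr+/- mouse 3.

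Among the α, δ and PP factors, ETV1, an ETS factor, had the smallest unadjusted p of all members. It was at 14.02, 12.46, 16.8 and 14.2 scaled TPM in βPrlR+/- islets, against 11.3, 12.56 and 9.70 in Prlr+/- islets. The groups met only at βPrlR+/- mouse 2 and Prlr+/- mouse 2. The log2 fold change was -0.33 with SE 0.12 and an interval of -0.60 to -0.06, at an unadjusted p of 0.022 and an adjusted p of 0.96 in limma. The exact permutation p was 0.086. The groups of ETV1 did not overlap when TPM was used as deposited, under upper-quartile scaling or with the insulin genes left out, settings in which 8.71%, 5.1% and 4.74% of all genes tested did not overlap. With a mouse left out the unadjusted p of ETV1 was 0.012 to 0.083, and it was above 0.05 only without Prlr+/- mouse 3.

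IRX1 and IRX2, neighbouring homeodomain genes of α-cells, moved together from mouse to mouse. IRX1 was at 6.37, 4.16, 6.82 and 3.88 scaled TPM in βPrlR+/- islets, against 4.22, 5.26 and 4.31 in Prlr+/- islets, with a log2 fold change of -0.15 (interval -0.58 to 0.29). IRX2 was at 7.59, 5.30, 8.46 and 5.12 and at 5.57, 6.32 and 5.03, with a log2 fold change of -0.18 (interval -0.58 to 0.22). βPrlR+/- mice 1 and 3 were highest for both genes, and these mice also had the highest summed α-cell markers, 21250 and 23070 scaled TPM against 15230 to 18640 in the other 5. Across the 7 mice r with that sum was 0.80 for IRX1 (exact permutation p = 0.034) and 0.82 for IRX2 (exact permutation p = 0.027), rho was 0.68 (exact permutation p = 0.11) and 0.57 (exact permutation p = 0.20), and the adjusted p of both r was 0.55. Without the 2 mice farthest from the median r was -0.23 and -0.25, so the relation rests on those mice. With the summed acinar markers r was 0.81 for IRX1 (exact permutation p = 0.028) and 0.76 for IRX2 (exact permutation p = 0.048), rho was 0.86 (exact permutation p = 0.024) and 0.64 (exact permutation p = 0.14), and the adjusted p of r was 0.55 and 0.64. Without the 2 mice farthest from the median r with the acinar sum was 0.93 and 0.85. Without βPrlR+/- mouse 3 the log2 fold changes were -0.03 for IRX1 and -0.06 for IRX2. Without βPrlR+/- mouse 4 they were -0.26 and -0.27. The part of either set of markers in the IRX values was not tested.

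HHEX, a homeodomain factor that δ-cells need, was at 6.62, 3.78, 5.45 and 5.22 scaled TPM in βPrlR+/- islets, against 4.64, 4.04 and 4.27 in Prlr+/- islets, with a log2 fold change of -0.22 (interval -0.57 to 0.13) that was -0.12 without βPrlR+/- mouse 1 and -0.34 without mouse 2. The Prlr+/- mice lay close together, inside the βPrlR+/- range. MEIS2, a TALE homeodomain factor, was at 37.9 to 44.9 over the 7 mice, with a log2 fold change of 0.08. POU3F4, a POU factor of α-cells, was at 0.14 to 0.28 in βPrlR+/- islets, against 0.19 to 0.21 in Prlr+/- islets, and was not tested. Of the 5 tested, 1 was above 0 and 4 below, with a median of -0.18. That median was -0.06 without βPrlR+/- mouse 3 and -0.30 with TPM as deposited. Summed markers of α-cells, led by Gcg, the glucagon gene, and TTR, were 15230 to 23070 in βPrlR+/- islets and 15250 to 15760 in Prlr+/- islets, and none of their 5 tested genes lay above 0 (0 called, median -0.31). Summed markers of δ- and PP-cells, led by PPY and SST, were 18210 to 21350 and 15770 to 17470, ranges that do not overlap, with 1 of 6 above 0 (0 called, median -0.22). In limma 2 of the 5 α-cell markers and 0 of the 6 δ- and PP-cell markers had an unadjusted p under 0.05, where 4.52% of all genes tested did. The groups did not overlap for 1 gene of each list, where 4.95% of all genes tested did not. The part of these markers in the values of the α, δ and PP factors was not tested.

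Of the 8 progenitor, duct and acinar factors, 4 lay below the filter and were not tested. Over the other 4 the median was -0.09 on the log2 scale, with 1 above 0 and 3 below. It was 0.0028 without Prlr+/- mouse 3, -0.20 with TPM as deposited and 0.02 where the mean TPM had to reach 5. NEUROG3, the switch of endocrine commitment, was at 3.62, 1.98, 3.04 and 2.49 scaled TPM in βPrlR+/- islets, against 3.07, 2.51 and 2.05 in Prlr+/- islets, with a log2 fold change of -0.08 (interval -0.47 to 0.31). The Prlr+/- values lay inside the βPrlR+/- range. PAX4, which acts after NEUROG3 in the β- and δ-lineage, was listed at 0 in 4 mice, βPrlR+/- mouse 2 and all 3 Prlr+/- mice, and at 0.016 to 0.021 in the other 3. ONECUT1, a progenitor factor, was listed at 0 in 2 βPrlR+/- mice and reached at most 0.12.

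SOX4, an HMG-box factor of endocrine progenitors, was at 6.70, 13.0, 15.3 and 11.7 scaled TPM in βPrlR+/- islets, against 13.1, 5.58 and 12.1 in Prlr+/- islets. A single mouse of each group, βPrlR+/- mouse 1 and Prlr+/- mouse 2, stood well below the other 5, and the log2 fold change was -0.19 (interval -0.98 to 0.59). GATA6, a zinc-finger factor of the early pancreas, had a log2 fold change of -0.09, which was -0.16 without Prlr+/- mouse 2 and -0.01 without Prlr+/- mouse 3. BHLHA15, a bHLH factor of secretory cells and a marker of acinar cells, was at 20.9, 16.3, 15.4 and 18.2 in βPrlR+/- islets, against 17.3, 29.1 and 18.1 in Prlr+/- islets. Its log2 fold change of 0.23 (interval -0.20 to 0.67) was 0.0051 without Prlr+/- mouse 2 and 0.37 without Prlr+/- mouse 1.

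SOX9, a factor of progenitors and duct cells, was at 0.25, 0.092, 0.19 and 0.15 scaled TPM in βPrlR+/- islets, against 0.13, 0.22 and 0.17 in Prlr+/- islets, below the filter. The summed acinar markers were 15900, 1751, 15790 and 5219 in βPrlR+/- islets, against 4950, 13210 and 6890 in Prlr+/- islets. Across the 7 mice SOX9 and this sum had Pearson's r = 0.94 (permutation p = 0.00099, exact over all orders of the mice) and Spearman's rho = 0.96 (exact permutation p = 0.0028), and r = 0.89 without the 2 mice farthest from the median. GATA4, a zinc-finger factor of the early pancreas and of acinar cells, was at 0.59, 0.23, 0.62 and 0.34 scaled TPM in βPrlR+/- islets, against 0.40, 0.60 and 0.22 in Prlr+/- islets. It was highest in the 3 mice with the highest acinar sums, and had r = 0.83 (exact permutation p = 0.023) and rho = 0.64 (exact permutation p = 0.14). For BHLHA15 r was 0.44 (exact permutation p = 0.34) and rho 0.36 (exact permutation p = 0.44). Of 93 such relations of 31 members with the sums of 3 marker lists, 0 passed after Benjamini-Hochberg adjustment, and that of SOX9 had an adjusted p of 0.092 for r and 0.13 for rho. Summed duct markers were 308 to 370 in βPrlR+/- islets and 297 to 380 in Prlr+/- islets.

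**Figure D3:**
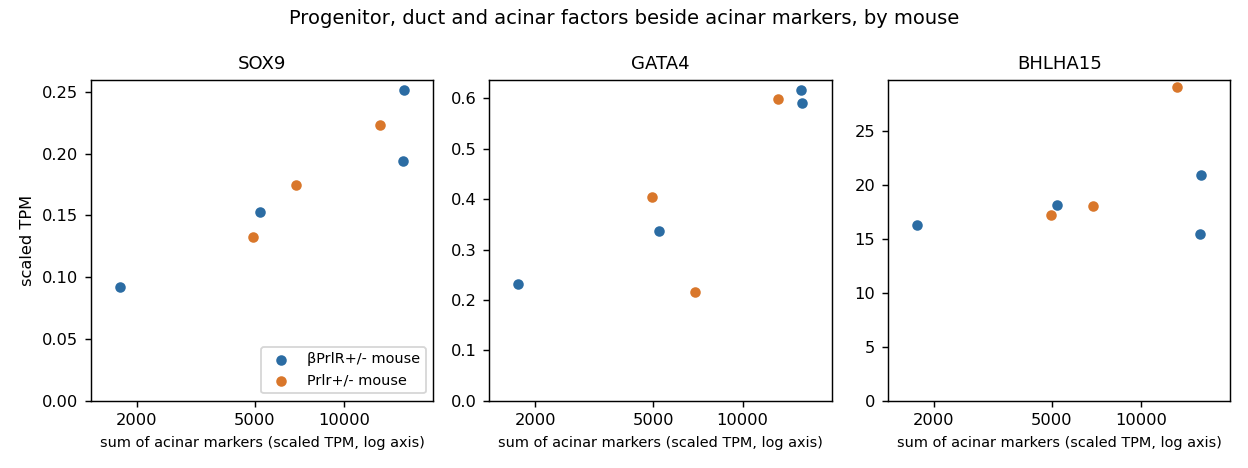
Scaled TPM of SOX9, GATA4 and BHLHA15 (vertical axes) against the summed scaled TPM of acinar markers (log axis), 1 point per mouse. SOX9 is lowest in the mouse with the lowest acinar sum, 1751, and highest in the mouse with the highest, 15900, and BHLHA15 does not follow that order.

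The members differed in how much they varied among mice of 1 group. The median SD within groups, on the log2(scaled TPM + 1) scale, was 0.20 over the 27 members and 0.13 over all genes tested, and 19 of the 27 lay above the latter median. This scale shrinks the SD of low genes, and 22 of the 27 had a mean TPM of at least 5. The members were not set against genes of like level, so level may enter this difference. SOX4 (SD 0.53), MAFA (0.46), NKX6-1 (0.37) and MNX1 (0.35) varied most. Larger SDs were found in 4.70%, 5.36%, 7.31% and 8.12% of all genes tested. MEIS2 (0.07), FOXA2 (0.08), GLIS3 (0.08) and TCF7L2 (0.09) varied least. MAFA, NKX6-1 and MNX1 are β-cell identity factors, and their intervals of the fold change were the widest after that of SOX4.

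Several members varied in parallel or in opposite order from mouse to mouse. Over the 351 pairs of the 27 members, 16 had a Pearson's r past 0.9 in size across the 7 mice, 8 positive and 8 negative. That is 4.56% of pairs, where 1.3% of the pairs of all genes tested did so. The members were not set against pairs of genes of like level and spread, so these may enter this difference. Several of the 16 pairs share a gene, such as PDX1, MNX1, RFX6 or NKX6-1, and are not independent. After centring each group on its own mean, all 16 kept their sign and were at least 0.88 in size. Without the 2 mice farthest from the median of 1 gene of the pair they were at least 0.72. The 16 pairs were picked by their r in these same mice, and neither check was run on pairs of all genes. Both checks are therefore description and not a test of the pairs. Both genes of a pair were divided by the size factor of the same mouse. No pair passed Benjamini-Hochberg adjustment over the 351, and the smallest adjusted p was 0.070.

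PDX1 and NKX6-1 had r = 0.92 (rho = 0.82), PDX1 and MNX1 r = 0.91 (rho = 0.89), and NKX6-1 and MNX1 r = 0.91 (rho = 0.93). The exact permutation p of r, over all 5040 orders of the 7 mice, lay between 0.0046 and 0.0065 for these 3 pairs and that of rho between 0.0067 and 0.034, and the adjusted p of r between 0.12 and 0.14. In all 3 genes Prlr+/- mouse 2 was highest and βPrlR+/- mouse 1 came next, and βPrlR+/- mice 2 and 4 were the lowest.

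RFX6 ran the other way. It had r = -0.94 with PDX1 (rho = -0.96), r = -0.95 with MNX1 (rho = -0.96) and r = -0.91 with NKX6-1 (rho = -0.86). FOXO1 followed PDX1 in exactly reversed order (r = -0.95, rho = -1), and GLIS3 ran with RFX6 (r = 0.94, rho = 0.86). For these 5 pairs the exact permutation p lay between 0.0006 and 0.0034 for r and between 0.0004 and 0.024 for rho, and the adjusted p of r between 0.070 and 0.099. RFX6 and FOXO1 were lowest in Prlr+/- mouse 2, next lowest in βPrlR+/- mouse 1 and highest in βPrlR+/- mouse 4.

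**Figure D4:**
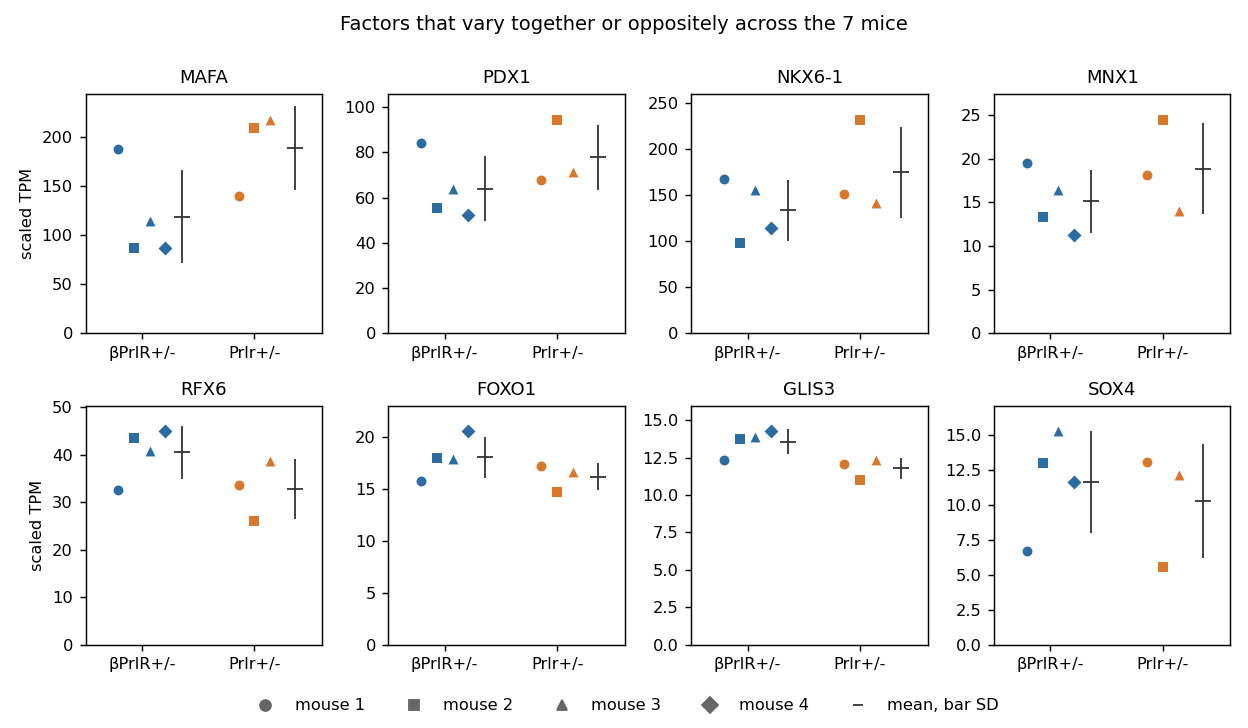
Scaled TPM of 8 factors in each mouse, with the mean and SD of each group beside the points and the mouse number shown by the marker. βPrlR+/- mouse 1 and Prlr+/- mouse 2 are high for PDX1, NKX6-1 and MNX1 and low for RFX6, FOXO1 and SOX4.

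**Figure D5:**
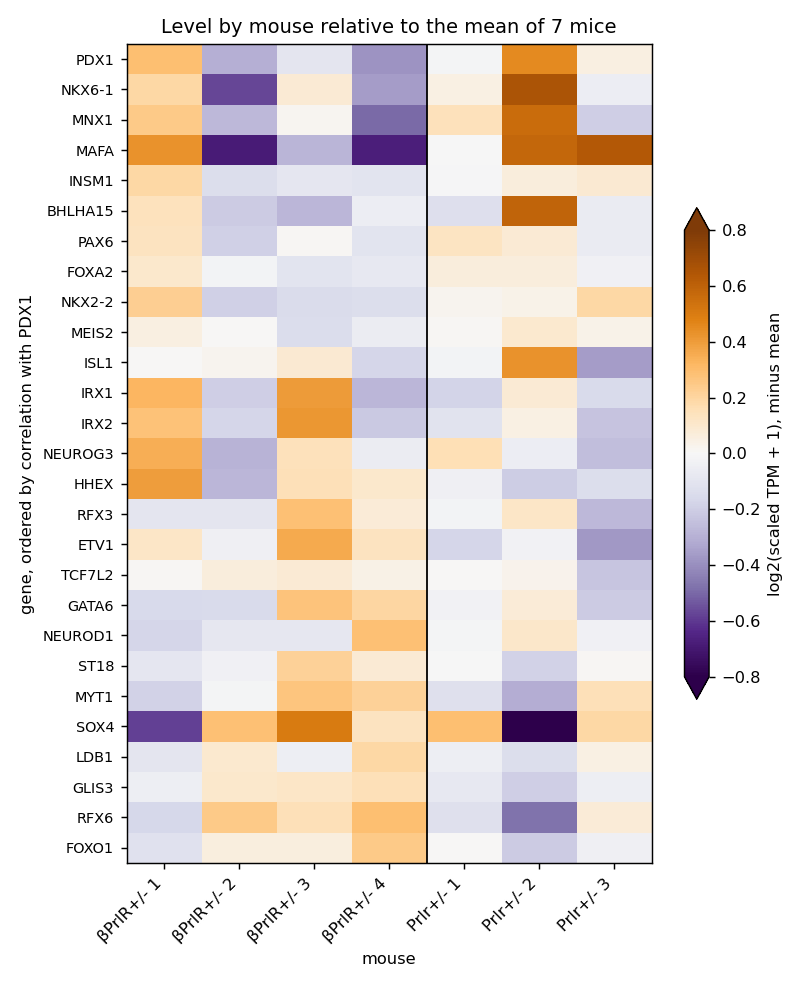
Log2(scaled TPM + 1) of the 27 tested factors in each mouse, minus the mean of the 7 mice, with the genes ordered by their correlation with PDX1 from the top down. Orange is above and purple below the mean. Columns of βPrlR+/- mouse 1 and Prlr+/- mouse 2 are alike at the top and at the bottom, and lie on different sides of the line between the groups.

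There were 8 further pairs past 0.9, within and between roles. The positive ones were IRX1 with IRX2 (r = 0.98, rho = 0.79), NKX2-2 with INSM1 (r = 0.97, rho = 0.96), GATA6 with RFX3 (r = 0.94, rho = 0.96) and ST18 with MYT1 (r = 0.91, rho = 0.96). The negative ones were LDB1 with MNX1 (r = -0.97, rho = -0.96), MEIS2 with ST18 (r = -0.97, rho = -0.86), FOXA2 with MYT1 (r = -0.93, rho = -0.89) and BHLHA15 with SOX4 (r = -0.94, rho = -0.96). Over these 8 pairs the exact permutation p lay between 0.0004 and 0.0077 for r and between 0.0028 and 0.048 for rho, and the adjusted p of r between 0.070 and 0.14.

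Acinar marker sums were high in Prlr+/- mouse 2 and βPrlR+/- mouse 1, which had the highest PDX1, NKX6-1 and MNX1. βPrlR+/- mouse 2, with the lowest sum, 1751, had PDX1 at 55.3, NKX6-1 at 98.1 and MNX1 at 13.3. In βPrlR+/- mouse 4 the sum was 5219 and these genes were at 52.3, 114 and 11.2. Prlr+/- mouse 1 had a sum of 4950 with the genes at 67.6, 151 and 18.1. For Prlr+/- mouse 3 the sum was 6890 and the genes were at 71.3, 141 and 14.04. NKX6-1 had r = 0.80 with that sum (exact permutation p = 0.036, adjusted p = 0.55) and rho = 0.79 (exact permutation p = 0.048, adjusted p = 0.89), with r = 0.65 without the 2 farthest mice. PDX1 had r = 0.68 (exact permutation p = 0.088) and rho = 0.57 (exact permutation p = 0.20), and MNX1 had r = 0.61 (exact permutation p = 0.15) and rho = 0.57 (exact permutation p = 0.20). βPrlR+/- mouse 3 combined a sum of 15790 with PDX1 at 64.0, the third lowest of the 7, and with NKX6-1 at 155 and MNX1 at 16.4. The part of acinar RNA in the pattern was not tested.

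Genes that the β-cell factors act on were listed separately. Of 15 such genes, among them INS, Ins1, SLC2A2 and UCN3, 13 had log2 fold changes above 0 and 2 below, with a median of 0.17, and 0 passed the adjusted threshold. SLC2A2, the glucose transporter of mouse β-cells, was at 225, 152, 251 and 148 scaled TPM in βPrlR+/- islets, against 253, 285 and 242 in Prlr+/- islets (log2 fold change 0.46). UCN3, a marker of mature β-cells, was at 323, 178, 214 and 141 and at 343, 317 and 255 (log2 fold change 0.57). Of 16 further islet transcription factors, 10 were tested, 3 lay above 0 and 7 below, the median was -0.07 and 0 passed.

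Values were also given by transcript. Of 202 annotated transcripts of the members 75 passed the filter, in 26 members, and 0 passed the adjusted threshold, where 0.021% of all 28553 tested transcripts did. An unadjusted p under 0.05 was found for 6 of the 75, with 3.91% among all transcripts. ST18, PAX6 and MEIS2 had the most transcripts above the filter, 8 each. In MEIS2 the leading transcript made up 51.5% to 56.8% of the total by mouse, in PAX6 2 transcripts held 20.8% to 32.3% and 23.1% to 34.9% and led in all mice but Prlr+/- mouse 3, where another (24.1%) was above the latter, and in ST18 2 led with 21.4% to 36.1% and 19.1% to 30.6%.

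The share of a gene's value held by each transcript did not overlap between the groups for 3 of 62 shares of members, or 4.84%, where 4.08% of all such shares did not overlap. In MYT1, a zinc-finger factor of endocrine differentiation, transcript NM_001171615.1 held 29.6%, 32.3%, 24.3% and 36.04% in βPrlR+/- islets, against 45.3%, 40.5% and 50.8% in Prlr+/- islets. The means were 30.6% ± 4.93 (SD, n = 4) and 45.5% ± 5.14 (SD, n = 3), and the exact permutation p was 0.029, the smallest the design allows, before adjustment. Transcript XM_006500577.3 of MYT1 was at 2.85, 3.12, 4.71 and 2.47 scaled TPM and at 2.55, 0.32 and 0.72, with a log2 fold change of -1.07 at an unadjusted p of 0.015 and an adjusted p of 1 in limma. The other 2 shares without overlap were smaller in the Prlr+/- mice, NM_010697.1 of LDB1 (16.8% against 13.7%) and XM_011239349.2 of NKX2-2 (2.09% against 1.5%). Shares between transcripts that overlap in sequence are estimates of the quantifier, whose error was not used here.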

How the data were processed

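Per the labels, poly(A) RNA of hand-picked islets went into directional libraries, and the authors quantified RefSeq mouse transcripts with kallisto 0.42.4 (submitters' processing notes). The genome build is not given in the sources used here. The deposited values are called FPKM in the methods but sum to 1000000 per mouse, so they were handled as TPM. The methods give the reads sequenced per library, but TPM keeps no count per gene, and no counting interval was computed. Gene values were the sums over 107384 transcripts, and no sample column was left unused.

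TPM was divided by median-ratio size factors (0.883 to 1.109) from 14435 genes. Features averaging 0.5 TPM or more were compared by limma 3.58.1 (R 4.3.3, mean-dependent prior variance) after a log2(scaled TPM + 1) transform, and adjusted p-values (Benjamini-Hochberg) were called at 0.05. Fold changes are on that scale and understate those of low genes. Intervals are 95%. The fit was tested on simulated data. The labels do not state separate litters or cages, and p-values measure the spread between these mice. The members and lists were chosen with earlier results of these data known. Named genes were the defining members of each role, the 3 smallest unadjusted p-values in each direction, members without overlap and those with most transcripts. Other members are given by counts, ranges or fold changes, or as members of pairs chosen after their values were seen. Some of them, such as MNX1, SOX4 and GATA4, are also given by mouse. Some marker and target genes, such as SLC2A2 and UCN3, were named outside this rule. Some genes of the list of further islet factors are not reported here by name. Alternatives were other scalings, pseudocounts, filters, a prior variance without a trend, and each mouse left out. Python 3.11.15, pandas 2.3.3, scipy 1.17.1 and matplotlib 3.10.9 were used.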

Additional observations from a re-analysis of the deposited data

Results flagged for a closer look

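In the group of 4 βPrlR+/- mice, a single mouse lay far from the other 3 for 4 of the 31 members looked at, by Dixon's criterion, which chance meets in about 1 of 20 groups. The share of all genes that met it in these mice was not computed, so the 4 cannot be read as an excess. NKX2-2 was highest in βPrlR+/- mouse 1 at 82.0 scaled TPM, with 61.3 to 63.7 in the other 3 and 71.0 to 79.9 in the Prlr+/- mice. INSM1 was highest in the same mouse at 72.4 scaled TPM. It varied with NKX2-2 across the 7 mice (r = 0.97), so these flags are not separate. NEUROD1 was highest in βPrlR+/- mouse 4 at 97.2 scaled TPM, with 70.6 to 74.96 in the others. FOXA1 was highest in βPrlR+/- mouse 3 at 0.076 scaled TPM, below the filter on low values.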

How the results depend on the processing

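Under all 8 other settings and with each mouse left out, 0 members passed the adjusted threshold, and the smallest adjusted p was 0.37. Of 211 fold changes under other settings 203 kept their sign, and of 189 with a mouse left out 181 did, with 17 of the 27 members on the same side throughout. TPM as deposited put the median over all tested genes at -0.12, from 0.0042. In that setting the medians were -0.21 for all members, -0.0315 for the β-cell identity factors, -0.11 for the endocrine-wide factors and -0.20 for the progenitor, duct and acinar factors, and 7 members changed sign: NKX2-2 -0.0029, NEUROD1 -0.11, ISL1 -0.11, PAX6 -0.0551, INSM1 -0.0611, FOXA2 -0.0842 and MEIS2 -0.058. Upper-quartile scaling gave ISL1 -0.0013. In both settings 2 members did not overlap between groups, where 8.71% (TPM as deposited) and 5.1% (upper-quartile scaling) of all genes tested did not. A mean TPM of at least 5 gave medians of 0.0322 for all members, 0.29 for the β-cell identity factors and 0.0205 for the progenitor, duct and acinar factors, with fewer genes tested. With a mouse left out, the median ranged from -0.11 to 0.0054 over all members, from -0.0262 to 0.061 over the endocrine-wide factors, from 0.033 (without Prlr+/- mouse 2) to 0.1543 (without Prlr+/- mouse 3) over the β-cell identity factors, from -0.2601 to -0.0637 over the α, δ and PP factors (βPrlR+/- mice 4 and 3 left out), and from -0.1471 (without Prlr+/- mouse 1) to 0.0028 (without Prlr+/- mouse 3) over the progenitor, duct and acinar factors. Fold changes that crossed 0 ranged from -0.0183 to 0.13 for NEUROD1, from -0.18 to 0.22 for ISL1, from -0.19 to 0.0054 for RFX3, from -0.19 to 0.0194 for NEUROG3 and from -0.42 to 0.16 for SOX4. The count of all genes called was 6 with the filter of 5 and 4 with no filter. It was 17 with a pseudocount of 0.5 and 18 with a pseudocount of 0.1. With a mouse left out it was 2 to 13, the lowest without βPrlR+/- mouse 4 (5 without βPrlR+/- mouse 1, Prlr+/- mouse 1 or Prlr+/- mouse 2). The cause was not tested. No paired analysis was possible because the labels give each mouse a number of its own. The reads behind each gene are not kept in TPM, which limits what can be said of members under the filter.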
